A study of Mus musculus with 10 samples.

Results

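All 5 samples with a mutant allele of Polr1a were set against all 5 wild-type samples of the same series, so the comparison uses 10 of 10 samples and asks which RNA levels move together in both alleles. Each sample is total RNA from the telencephalon of a mouse embryo at embryonic day 12, measured by RNA sequencing. The mutant samples are 2 labelled null, which share the title number Polr_2048 with wild types 1 and 2, and 3 labelled missense, with the protein change C1559F, which share the title number Polr_2138 with wild types 3, 4 and 5. The sources used here do not give the zygosity or strain of the embryos, nor what the title numbers stand for. Each allele belongs to 1 title number, so the allele and the title number cannot be told apart, while mutant and wild type are both present within each number. Nothing in the labels says whether samples of a group are littermates, and p-values therefore measure the spread between these samples.

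RNA polymerase I makes ribosomal RNA in the nucleolus, and Polr1a codes for its largest, catalytic subunit. When ribosome assembly is disturbed, unassembled ribosomal proteins and 5S RNA can bind Mdm2, the ubiquitin ligase that holds p53 down, and p53 then switches on genes of cell cycle arrest, repair and apoptosis. The telencephalon at this age is patterned between a dorsal midline signalling centre, the cortical hem, which secretes Wnt and Bmp proteins, and ventral ganglionic eminences, which make GABAergic neurons under Dlx and Nkx2-1 control.

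The measurement is a deposited log2 value per gene and sample on a scale like log2 CPM (counts relative to the total of the sample), so a difference of 1 is a 2-fold change. Back-transformed values of the named genes sum to between 1000453 and 1000891 in each sample, which leaves the sequencing depth unknown. Correlations between samples ran from 0.938 to 0.964 across genes, and no pair was duplicated. Missense 3 had the lowest median correlation with the others, 0.9455. Transcription factors of the telencephalon were present in every sample, with Emx1 between 5.45 and 5.90 and Emx2 between 6.27 and 6.89. Y-linked RNA was found in some but not all samples of each of the 4 groups of genotype and title number.

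Polr1a RNA itself was not separated by the pooled comparison. Its log2 level was 5.38 in both wild types of number Polr_2048 and 4.99 and 4.82 in the null samples. In number Polr_2138 it was 5.62, 5.51 and 5.64 in wild type and 5.09, 5.66 and 5.79 in missense. Both null samples lay below their wild types, while missense 2 and 3 lay above theirs. The pooled difference, mutant minus wild type with title number as a block, was -0.24 (SE 0.13, limma adjusted p = 0.576). An exact 2-sided permutation test within title numbers gave p = 0.167 over 120 arrangements, of which the smallest possible p is 0.0167. None of the 20 measured genes nearest to Polr1a in the reference gene order was separated between mutant and wild type in both title numbers. Over all genes 3.85% were, so that none among 20 tells little about this region.

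Over all genes, 3 of 14796 passed a Benjamini-Hochberg adjusted p of 0.05 in limma (0.0203% of genes), and all 3 rose in the mutants. They were Ccng1 and Eda2r, which are targets of p53, and Wnt8b, a Wnt ligand of the cortical hem. No gene fell past the threshold (0% of genes), while an unadjusted p under 0.05 was reached by 1534 genes (10.4%), 960 of them higher (6.49%) and 574 lower (3.88%). A gene is called separated here when every mutant lay on the same side of every wild type of its own title number, in both numbers and in the same direction. This held for 569 genes (3.85%), 365 of them higher (2.47%) and 204 lower (1.38%). Genotype reassigned at random within title numbers separates a gene with a chance of 0.0167. Some of the 569 would thus be separated without any effect.

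The number of genes called depends on how the alleles are averaged. The block fit gives each sample its weight and counts any difference between the alleles as spread. Another fit, to all samples together, instead gave each allele its own effect. When both effects were averaged with equal weight, 40 genes passed, 12 higher and 28 lower. All 40 had the same sign in each allele (59.5% of all genes) and 34 were separated (3.85% of all genes). Choosing genes by the average of both effects favours equal signs and separation. The larger change was in the null samples for 35, but null effects rest on fewer samples and the share over all genes was not counted. The adjusted p of this averaged fit is given beside most of the genes named here that it adds.

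**Figure D1:**
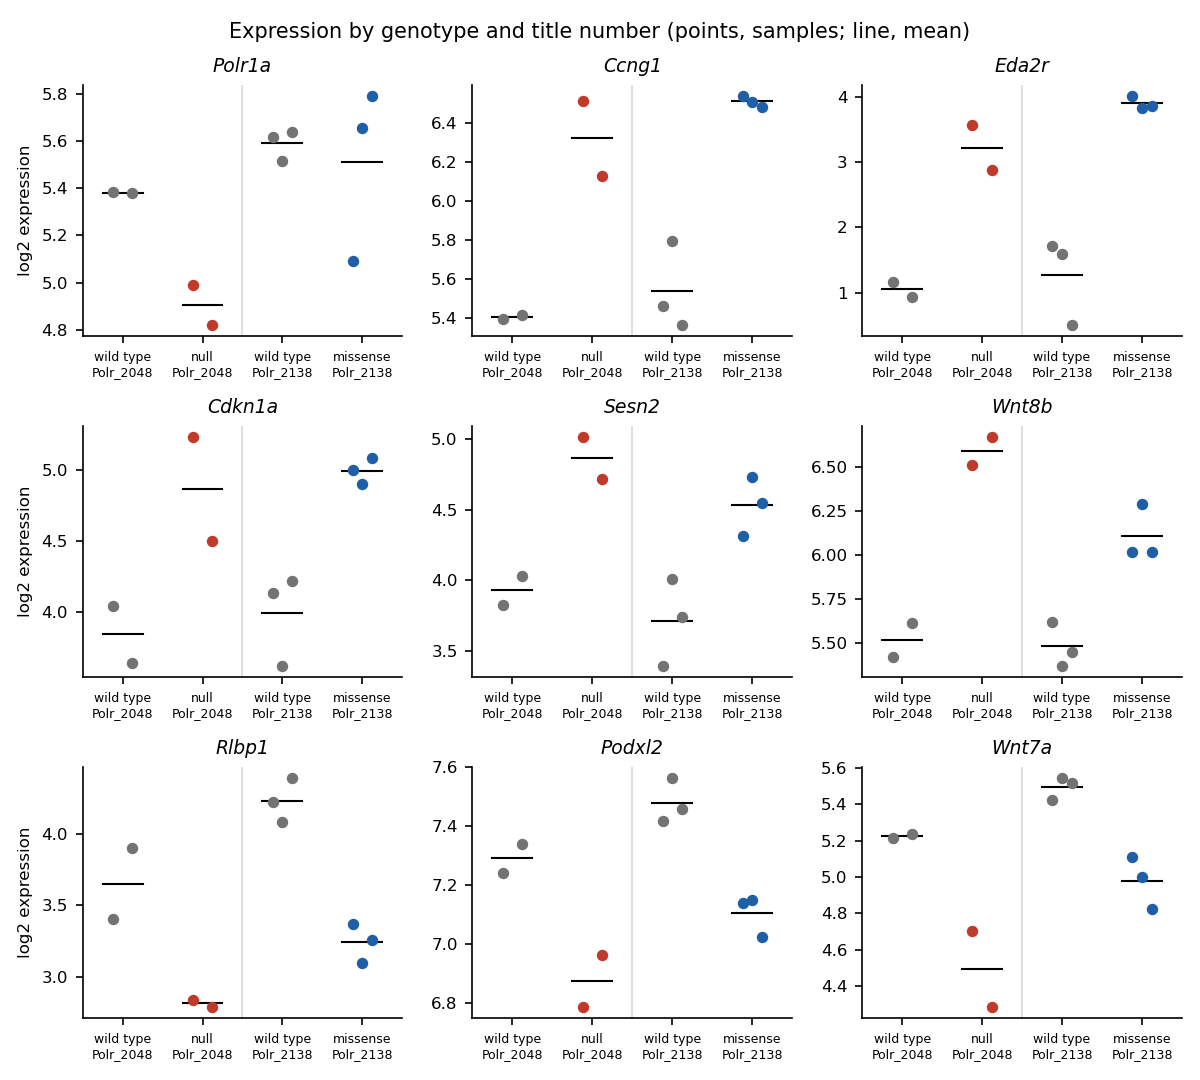
Log2 expression of 9 genes (y axis, 1 point per sample, line at the group mean) in wild type and null of title number Polr_2048 and in wild type and missense of number Polr_2138. Ccng1, Eda2r, Cdkn1a, Sesn2 and Wnt8b are higher, and Rlbp1, Podxl2 and Wnt7a lower, in every mutant than in every wild type of its number, while the missense samples of Polr1a overlap their wild types.

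Ccng1 encodes cyclin G1, a p53-induced partner of protein phosphatase 2A. Its log2 level in wild type was 5.39 and 5.41 in number Polr_2048 and 5.46, 5.79 and 5.36 in number Polr_2138. It was 6.51 and 6.13 in the null samples and 6.54, 6.51 and 6.48 in the missense samples. Every mutant lay above every wild type, and the groups did not overlap. Ccng1 rose by 0.95 (SE 0.098, 1.93-fold, n = 5 against 5, limma adjusted p = 0.00632), with a 95% interval of 0.74 to 1.16. The change was 0.92 in null and 0.97 in missense.

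Eda2r, an X-linked gene, encodes a tumour necrosis factor receptor family member that binds an ectodysplasin. Wild-type log2 levels were 1.16 and 0.94 in number Polr_2048 and 1.71, 1.59 and 0.51 in number Polr_2138, against 3.56 and 2.87 in null and 4.01, 3.83 and 3.86 in missense. All 5 mutants lay more than 1 log2 unit above the highest wild type. Eda2r rose by 2.45 (SE 0.26, 5.45-fold, adjusted p = 0.00632 in limma), by 2.17 in null and 2.63 in missense. Its mean level lies under 2.60, the 25th percentile over all genes, so its wild-type values rest on little RNA. The call on Eda2r was lost without null 2 and missense 3 together (log2 change 2.60, limma adjusted p = 0.0642), where 1 gene, Ccng1, remained called.

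Cdkn1a encodes p21, the inhibitor of cyclin-dependent kinases through which p53 arrests the cell cycle. It was at 4.04 and 3.64 in the wild types and 5.23 and 4.50 in the null samples of number Polr_2048. In number Polr_2138 it was at 4.13, 3.62 and 4.21 in wild type and at 5.0, 4.90 and 5.08 in missense. The 5 mutants did not overlap the 5 wild types. The pooled difference was 1.01 (SE 0.16, limma adjusted p = 0.104), with 1.02 in null and 1.0 in missense, and the averaged fit gave an adjusted p of 0.0488. Sesn2, a sestrin that restrains mTORC1 and is induced by p53 and by Atf4, had a pooled difference of 0.87 (SE 0.14, limma adjusted p = 0.104; averaged fit 0.0488). Its levels ran from 3.39 to 4.03 in wild type and from 4.31 to 5.02 in the mutants.

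The promoters of these 3 p53 targets are printed because p53 acts through a repeated motif of 10 bases, and a copy within the window can be seen in 2 of the 3. Each window runs 5′ to 3′ from 250 bases before to 50 bases after the start of the RefSeq transcript, in build GRCm38.p6, with matches to the p53 motif in capitals. The motif reads the same on both strands.
Ccng1, chr11:40755237-40755536, minus strand: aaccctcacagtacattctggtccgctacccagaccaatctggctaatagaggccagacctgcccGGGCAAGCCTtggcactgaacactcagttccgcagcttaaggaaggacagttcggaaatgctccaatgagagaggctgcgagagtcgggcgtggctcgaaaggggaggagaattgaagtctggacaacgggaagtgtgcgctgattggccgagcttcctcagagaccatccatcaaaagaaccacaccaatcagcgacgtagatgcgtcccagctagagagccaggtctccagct
Cdkn1a, chr17:29090729-29091028, plus strand: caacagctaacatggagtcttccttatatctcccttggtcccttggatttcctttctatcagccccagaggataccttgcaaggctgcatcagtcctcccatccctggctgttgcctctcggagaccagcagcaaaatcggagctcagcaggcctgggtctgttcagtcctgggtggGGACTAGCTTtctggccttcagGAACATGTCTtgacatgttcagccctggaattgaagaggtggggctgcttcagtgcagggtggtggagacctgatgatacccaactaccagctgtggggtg
Eda2r, chrX:97377160-97377459, minus strand: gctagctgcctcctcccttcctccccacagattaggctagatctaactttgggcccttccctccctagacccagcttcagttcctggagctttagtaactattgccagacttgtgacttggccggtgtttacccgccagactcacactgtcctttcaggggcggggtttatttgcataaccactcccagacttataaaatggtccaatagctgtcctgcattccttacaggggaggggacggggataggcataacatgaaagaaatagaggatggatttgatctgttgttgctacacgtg

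Ccng1 holds 1 match, 185 bases before its start. Cdkn1a has 2 windows in the table, and the printed window was taken because it ranked first by number of matches. It holds 2 matches, at 73 and 51 bases before the start of that transcript. Eda2r holds none, which says only that these letters are not in this window. Of all 32851 promoter windows of the same length, 8.36% hold at least 1 match. Of the tested genes that have a window, 8.35% hold a match in any of theirs. Among the p53 targets measured here 46 have a window in the table, and 15 of these hold a match. A match is a description of the sequence and not a measured binding site.

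The wider list of p53 targets, which are genes that p53 is known to induce, holds 60 measured genes. Of these 46 were higher and 14 lower in the mutants, beside 55.5% of all genes higher, and 2 were called. At an unadjusted p under 0.05, 17 were higher and 2 lower, beside 6.49% and 3.88% of all genes. Another count, of separated members, was 13 upward and 0 downward, where all genes gave 2.47% upward. The list's median log2 change was 0.17, with 0.21 in null and 0.13 in missense, against 0.023 for all genes. Its summed level, back-transformed, was 2182 to 2238 in the wild types and 2378 to 2598 in the mutants, with no overlap. This list and those below were chosen with earlier results of these data known, so their counts and sums are descriptions and not tests. The shares over all genes given above apply beside the counts of each list.

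Several roles of p53 were represented among the separated genes. Phlda3, an inhibitor of Akt signalling, had a pooled difference of 0.89 (SE 0.19, adjusted p = 0.162), with 2.46 to 3.17 in wild type and 3.20 to 4.05 in the mutants. Pmaip1, which encodes the pro-apoptotic protein Noxa, differed by 0.63 and was higher in every mutant than in the wild types of its own number. Aen, an apoptosis-enhancing nuclease, differed by 0.45, Psrc1 by 0.33 and Sulf2, a sulfatase of heparan sulfate, by 0.58, with limma adjusted p from 0.104 to 0.309. Psrc1 and Aen were separated only by near-ties, as deviations from the wild-type mean of their number show. For Psrc1, missense 1 was at 0.2266 and wild type 5 at 0.2265. For Aen, null 2 was at 0.2841 and wild type 1 at 0.2766. Ccng2, the paralogue of Ccng1, was lower by a log2 change of -0.35 (adjusted p = 0.236). Trp53 itself differed by 0.02 and Mdm2, which is also a member of the p53 target list, by -0.01, both less than their SE of 0.07 and 0.09. Phlda3, Pmaip1, Aen, Psrc1, Sulf2, Ccng2, Trp53 and Mdm2 were named after their values were seen.

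**Figure D2:**
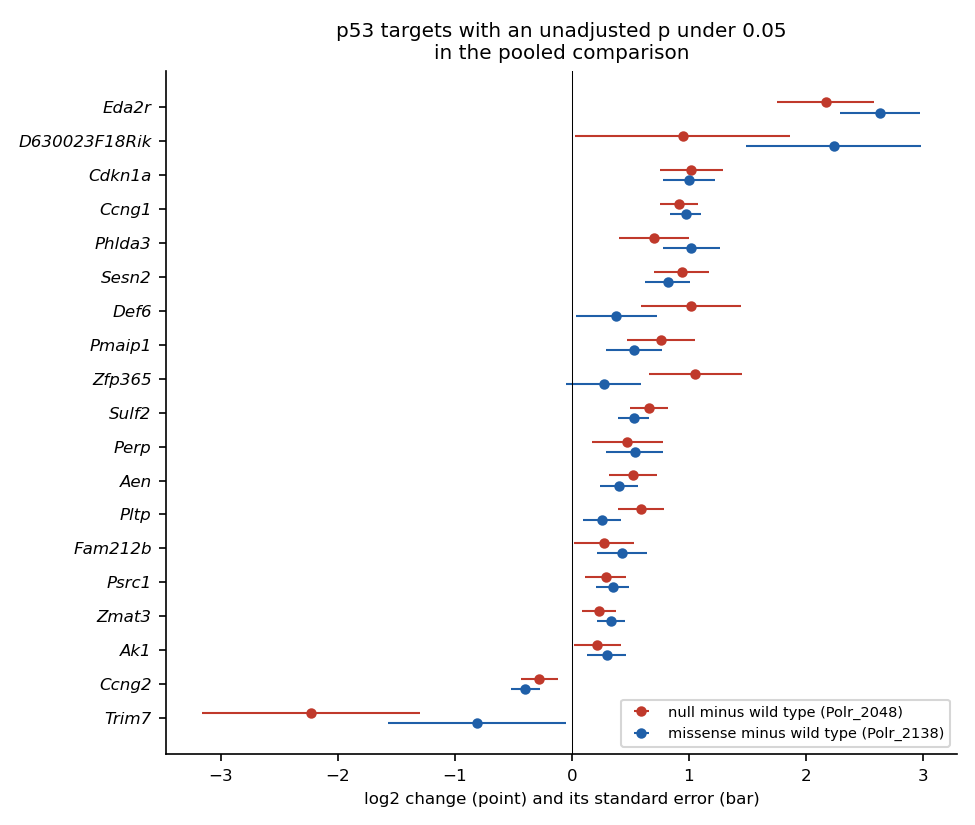
Log2 change (x axis) with its standard error for the 19 p53 targets that had an unadjusted p under 0.05 in the pooled comparison, for null minus wild type of title number Polr_2048 and missense minus wild type of number Polr_2138. For 17 genes both points lie above 0, and for Ccng2 and Trim7 both lie below 0. Choosing genes by the pooled p favours both points on the same side. Of all 60 measured members, 34 were higher in both alleles and 7 lower in both, beside 34.1% and 25.4% of all genes.

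Genes of apoptosis outside the p53 list, of ribosome production and of the cell cycle had pooled medians near the 0.023 of all genes. Among 18 apoptosis effectors, 10 were higher and 8 lower, with a median of 0.020. Casp8, an initiator caspase, was separated upward (0.45, SE 0.15, limma adjusted p = 0.314). Subunits and factors of RNA polymerase I had a median of -0.007 over 19 genes, with 0 separated and 0 called. Of the 19, 9 were lower in both alleles and 3 higher in both, beside 25.4% and 34.1% of all genes. Taf1b, a subunit of the promoter selectivity factor, differed by -0.64 (SE 0.25, limma adjusted p = 0.396), with -0.21 in null and -0.92 in missense, and Ttf1, the transcription terminator, by 0.36 (adjusted p = 0.440). Factors of ribosome biogenesis had a median of 0.032 over 40 genes, and the 5S particle and Mdm2 axis a median of -0.034 over 9 genes. S phase genes had a median of -0.012 over 35 genes and G2 and mitosis genes of -0.015 over 36. Targets of Atf4 in the integrated stress response had a median of -0.010 over 33 genes.

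Cytosolic ribosomal protein genes were mostly lower by small amounts. Of 78 measured, 62 were lower and 16 higher, with a median log2 change of -0.10, and -0.06 in null and -0.14 in missense. At an unadjusted p under 0.05, 11 were lower and 2 higher, and 0 were called. Their summed level overlapped between wild type, 29916 to 40241, and the mutants, 29306 to 36228. The median moved with the 2 wild types of Polr_2048, whose own medians lay at 0.23 and -0.23 around their mean: it was -0.034 without wild type 1 and -0.19 without wild type 2. Rpl13a differed by -0.40 (adjusted p = 0.265). Rps13 differed by 0.71 (adjusted p = 0.265), while its pseudogene Rps13-ps1, named after its values were seen, was at -1.91 in null 2, at -0.88, 0.05 and -3.16 in the missense samples, and at 7.31 to 7.72 in the other 6. Both are uncertain, since reads can be divided between near-identical copies.

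Wnt8b led a set of dorsal midline genes that were higher in both alleles. Its log2 level was 5.42 and 5.61 in the wild types of number Polr_2048 and 5.62, 5.37 and 5.45 in those of number Polr_2138. It was 6.51 and 6.67 in null and 6.02, 6.29 and 6.02 in missense, so that every mutant lay above every wild type and the null samples lay above the missense samples. Wnt8b rose by 0.81 (SE 0.11, 1.75-fold, limma adjusted p = 0.0394), by 1.08 in null and 0.63 in missense. Wnt8b was not called in Polr_2048 alone (limma adjusted p = 0.292), in Polr_2138 alone (0.452) or without a variance trend (0.170). Its call is close to the threshold and was lost without the block (adjusted p = 0.132), after median centring (0.0516), with sample weights (0.0618), with Y-linked RNA as a covariate (0.0586) and without wild type 1 (0.0660), 2 (0.135), 4 (0.130) or 5 (0.0798), null 1 (0.117) or 2 (0.0935) or missense 2 (0.109).

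Of 30 measured genes of the cortical hem and of Cajal-Retzius cells, the early neurons that arise there, 25 were higher and 5 lower. The list's median was 0.35, with 0.63 in null and 0.20 in missense. Members with an unadjusted p under 0.05 were 17 higher and 0 lower, beside 6.49% and 3.88% of all genes. Summed levels were 1358 to 1579 in wild type and 1647 to 1888 in the mutants and did not overlap. Of the 30 genes 9 were separated, all upward, beside 2.47% of all genes. Rspo2, an R-spondin that strengthens Wnt signalling, was at 1.88 and -0.24 in wild type and 2.70 and 3.29 in null, and at 1.90, 0.87 and 1.83 in wild type and 3.31, 3.53 and 3.59 in missense. It did not overlap between the 5 mutants and the 5 wild types (difference 2.04, SE 0.37, limma adjusted p = 0.108). Rspo3 differed by 0.51, Wnt3a, the hem ligand needed for the hippocampus, by 0.66, and the Bmp ligands Bmp6 and Bmp7 by 1.0 and 0.53, with limma adjusted p of 0.162 for Rspo3, Bmp6 and Bmp7 and 0.265 for Wnt3a. Rspo3 passed in the averaged fit (adjusted p = 0.0464). Reln, the secreted glycoprotein of Cajal-Retzius cells, differed by 0.02.

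Targets of Wnt and beta-catenin signalling were also mostly higher, with 18 of 21 above 0, a median of 0.31 and 12 higher and 0 lower members below an unadjusted p of 0.05. None of the 21 was separated in both title numbers. Axin2, a negative feedback gene of the pathway, differed by 0.63 in null and 0.06 in missense, and Apcdd1, a Wnt inhibitor, by 0.69 and 0.18. Rnf43, a ubiquitin ligase that removes Wnt receptors, differed by 1.75 (SE 0.45, limma adjusted p = 0.209), with 0.43 in null and 2.62 in missense. Nkd1, another feedback inhibitor, differed by 0.32 and 0.43. For Nkd1, wild type 1 was at 5.81 and the other 4 wild types at 5.57 to 5.63, so that wild type 1 lay above null 1, at 5.74.

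Choroid plexus epithelium develops beside the hem, and 17 of its 18 measured genes were higher, with a median of 0.36. At an unadjusted p under 0.05, 6 were higher and 0 lower (6.49% and 3.88% of all genes), and 3 were separated upward (2.47% of all genes). Folr1, a folate receptor, was at 0.57 and 0.21 in wild type and 1.68 and 2.28 in null, and at 1.68, 0.83 and 1.44 in wild type and 2.01, 3.04 and 2.47 in missense (difference 1.35, SE 0.29, limma adjusted p = 0.162). Each mutant lay above the wild types of its own number. Ttr, the transthyretin gene that marks this epithelium, overlapped in number Polr_2138, with 6.42, 6.32 and 6.82 in wild type and 7.13, 6.02 and 6.99 in missense, and differed by 0.39 (limma adjusted p = 0.523).

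Ventral telencephalic and GABAergic genes were lower in both alleles and more so in the null samples. Of 40 measured genes, 28 were lower and 12 higher, with a median of -0.39, and -0.75 in null against -0.13 in missense. At an unadjusted p under 0.05, 19 were lower and 2 higher, while 7 were separated downward and 1 upward, where all genes gave 1.38% downward. Their summed level was 2318 to 2659 in wild type, 2040 to 2178 in missense and 1531 to 1627 in null, with no overlap. In bulk RNA, fewer cells of a type and less RNA per cell cannot be told apart.

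Sp9, a zinc finger factor of GABAergic progenitors, was at 6.13 and 6.30 in wild type and 5.38 and 5.42 in null. In number Polr_2138 it was at 6.09, 6.33 and 5.94 in wild type and 5.66, 5.78 and 5.47 in missense. No mutant reached the lowest wild type, and the pooled difference was -0.61 (SE 0.10, limma adjusted p = 0.104), with an adjusted p of 0.0367 in the averaged fit. Dlx2, a homeobox gene of the ganglionic eminences, was at 7.05 and 7.39 in wild type and 5.77 and 5.30 in null, and at 7.0, 7.13 and 6.78 in wild type and 6.23, 6.72 and 6.41 in missense. It differed by -0.98 (SE 0.21, adjusted p = 0.162 pooled and 0.00666 in the averaged limma fit). Dlx5, of the same family, differed by -0.69, was separated and passed the threshold of the averaged limma fit (adjusted p = 0.0217).

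Dlx1, a homeobox factor of GABAergic precursors, was at 8.04 and 8.16 in wild type and 6.62 and 6.81 in null, and at 7.99, 8.07 and 8.0 in wild type and 7.66, 7.67 and 7.77 in missense. It was lower in every mutant, by -1.38 in null and -0.32 in missense, and the null effect minus the missense effect was -1.06 (SE 0.13, limma adjusted p = 0.0323). In the averaged fit Dlx1 and Rpl34 each had an adjusted p of 0.000302, though the null effect of Rpl34 had a limma adjusted p of 0.651. Over all genes, 2 passed this test of the difference (0.0135%), Dlx1 and Rpl34. With 1 sample left out, Dlx1 passed it in 2 of 10 fits (without wild type 1 or wild type 4, adjusted p of 0.0191 to 0.184 over the 10) and Rpl34 in 10 of 10, while neither passed without a variance trend and Dlx1 did not after median centring (adjusted p = 0.0566). Rpl34 was at 8.55 and 8.45 in wild type and 8.32 and 7.75 in null, and at 7.71, 7.60 and 7.86 in wild type and 4.19, 3.53 and 4.16 in missense, a null effect minus missense effect of 3.29 (SE 0.30, limma adjusted p = 0.00425), and it too has near-identical copies. Lhx6, a factor of cells from the medial ganglionic eminence, differed by -2.50 in null and -0.13 in missense, and Nkx2-1, which specifies that eminence, by -1.91 and -0.43 (averaged fit adjusted p = 0.0279 and 0.0464). Neither Lhx6 nor Nkx2-1 was separated, and Lhx6 in missense had a limma adjusted p of 0.960, so the averaged values do not show a shared change. For Lhx6 and Nkx2-1 the difference between alleles missed the threshold (limma adjusted p = 0.225 and 0.773).

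**Figure D3:**
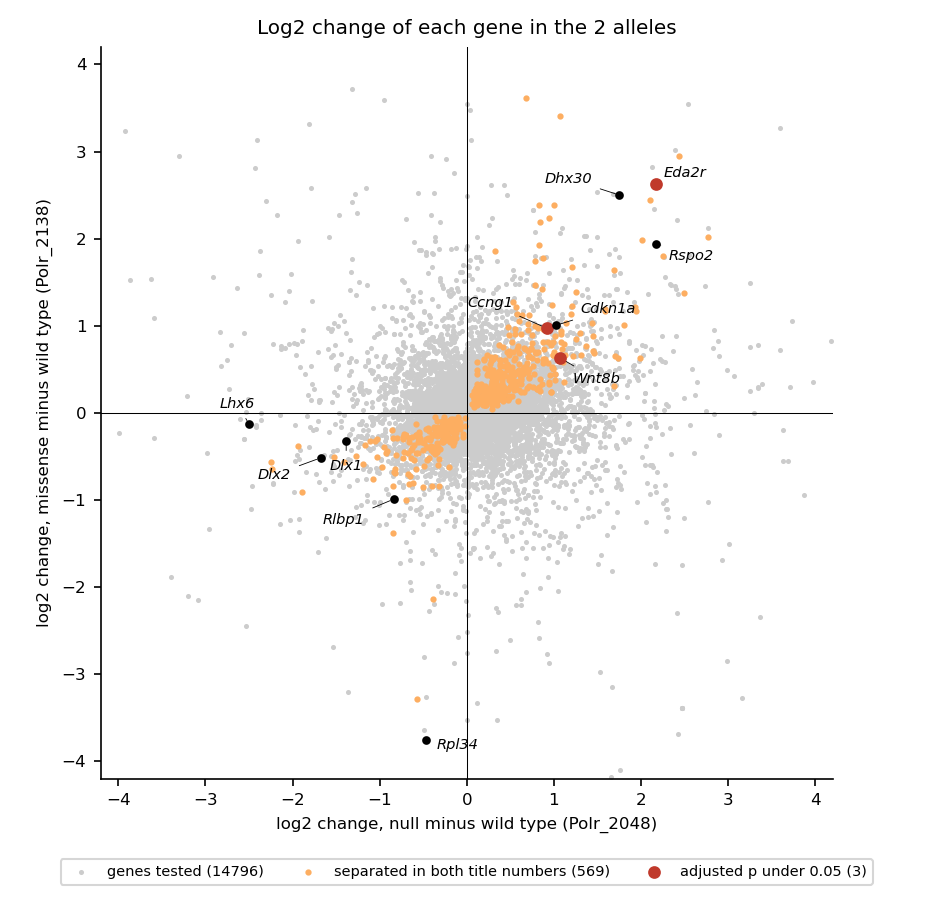
Log2 change of each of 14796 genes in null minus wild type (x axis) and missense minus wild type (y axis). The 3 called genes lie in the upper right, Dlx2 and Rlbp1 lie below 0 on both axes, and Lhx6 and Rpl34 each lie far from 0 on 1 axis, and 24 genes lie outside the axes.

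Across genes, the changes of the 2 alleles were weakly related as a description. The alleles share no samples, since each has its own wild types. Pearson's r was 0.10 and Spearman's rho 0.21 over 14796 genes, and 59.5% of genes had the same sign in each. Among the 11097 genes whose mean level reached the 25th percentile, r was 0.32 and 61.2% had the same sign. Genes are not independent replicates, and no p is given.

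Rlbp1, a retinaldehyde-binding protein, was at 3.40 and 3.90 in wild type and 2.84 and 2.79 in null, and at 4.22, 4.08 and 4.39 in wild type and 3.37, 3.10 and 3.26 in missense. All 5 mutants lay below all 5 wild types, with differences of -0.84 in null and -0.99 in missense (pooled -0.93, SE 0.14, limma adjusted p = 0.104; averaged fit 0.0464). Wnt7a, a Wnt ligand of cortical progenitors, differed by -0.60, Podxl2, a sialomucin, by -0.39 and Prkd1, protein kinase D1, by -0.57, each separated and each with an adjusted p of 0.104 in limma. In the averaged fit it was 0.0488 for Wnt7a and 0.0464 for Podxl2. Hes5, the Notch effector of progenitors, differed by -0.42 (adjusted p = 0.169) and was separated. The dorsal progenitor list as a whole had a median of -0.04 over 28 genes, and Pax6 and Emx1 differed by 0.11 and -0.13.

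Genes of the neighbouring diencephalon, hypothalamus, eye and midbrain were higher in 31 of 35 cases, with a median of 1.02 in null and 0.14 in missense, but 1 was separated. Their summed levels were 442 to 785 in wild type, 848 and 1125 in null and 495 to 742 in missense, so that both null samples lay above every wild type and the missense samples overlapped with them. The pooled median was 0.27 without wild type 2. The share of tissue from neighbouring regions in each sample was not tested.

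Genes of newborn cortical neurons and of neurons in general were mostly lower by small amounts, with 0 called. Of 26 genes of intermediate progenitors and newborn cortical neurons, 20 were lower, with a median of -0.19. At an unadjusted p under 0.05, 10 were lower and 0 higher (3.88% and 6.49% of all genes), and 5 were separated downward (1.38% of all genes). Their summed levels overlapped, at 2264 to 3043 in wild type and 2177 to 2755 in the mutants. Bcl11b, a zinc finger factor of cortical and striatal neurons, was at 7.54 and 7.86 in wild type and 7.02 and 6.56 in null, and at 7.95, 8.09 and 8.08 in wild type and 7.69, 7.47 and 7.64 in missense. Every mutant lay below the wild types of its own number (difference -0.63, SE 0.12, limma adjusted p = 0.122; averaged fit 0.0299). Neurod2, a factor of glutamatergic differentiation, differed by -0.62 and was separated, while Eomes, the marker of intermediate progenitors, differed by -0.35. Of 32 pan-neuronal genes 31 were lower, with a median of -0.14 (-0.096 without wild type 2), 3 separated and overlapping sums of 8334 to 10237 in wild type and 7017 to 9808 in the mutants. Nsg2, a neuronal endosomal protein, differed by -0.39 and Sez6 by -0.56, both separated and both past the averaged threshold (adjusted p = 0.0488 and 0.0464).

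**Figure D4:**
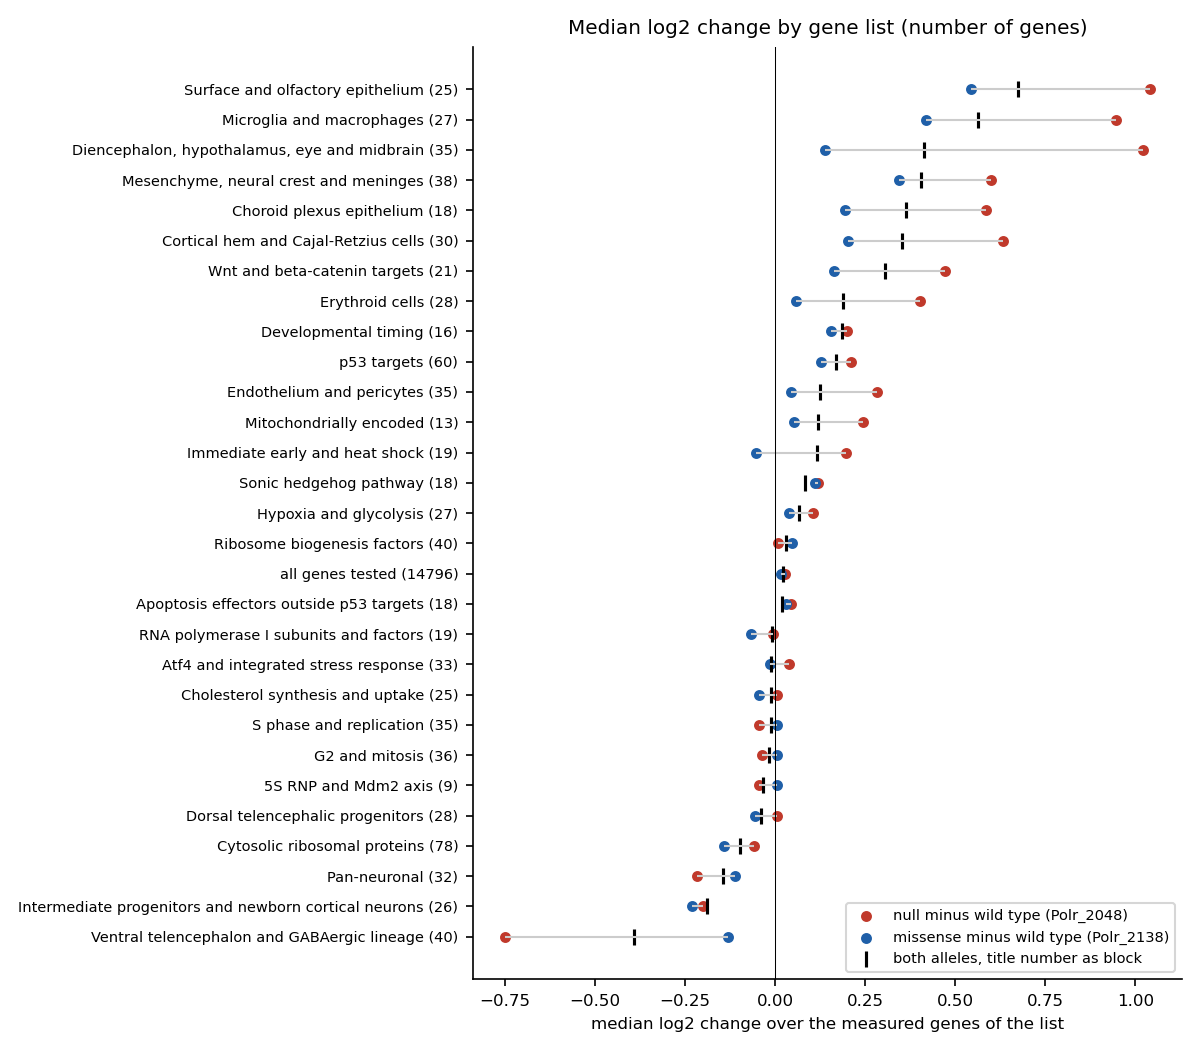
Median log2 change (x axis) over the measured genes of each list (y axis, number of genes in brackets) for null minus wild type, missense minus wild type and both alleles pooled. The ventral list is the lowest in null, at -0.75, while in missense, where it is at -0.13, newborn neurons are lower, at -0.23, as are cytosolic ribosomal proteins, at -0.14. The p53 targets lie at 0.21 and 0.13.

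Microglia and macrophages, the immune cells that enter the brain at this age, had higher RNA levels in both alleles. Of 27 measured genes 26 were higher, with a median of 0.56, and 0.95 in null and 0.42 in missense. At an unadjusted p under 0.05, 14 were higher and 0 lower (6.49% and 3.88% of all genes), and 8 were separated upward (2.47% of all genes). Their summed level was 134 to 201 in wild type and 210 to 287 in the mutants, without overlap. Fcrls, a microglial receptor, was at 2.34 and 2.15 in wild type and 3.15 and 3.20 in null, and at 2.56, 2.55 and 2.75 in wild type and 3.80, 3.25 and 3.67 in missense. No mutant overlapped a wild type (difference 0.94, SE 0.16, limma adjusted p = 0.104), with 0.93 in null and 0.95 in missense. Cx3cr1, the fractalkine receptor, differed by 0.71 and the complement genes C1qa, C1qb and C1qc by 0.69, 1.01 and 0.88, all 4 separated. Cx3cr1 and C1qb passed in the averaged fit (limma adjusted p = 0.0464 and 0.0488). Ctsd, a lysosomal protease, differed by 0.53 (limma adjusted p = 0.104) and was also higher in every mutant than in the wild types of its number.

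Markers of tissue around the telencephalon were mostly higher in the mutants as well. All 38 mesenchymal, neural crest and meningeal genes were above 0, with a median of 0.41, but 2 were separated and the summed levels overlapped, at 2608 to 4393 in wild type and 3442 to 4893 in the mutants. Of 25 surface and olfactory epithelial genes 24 were higher, with a median of 0.67. At an unadjusted p under 0.05, 14 of them were higher and 0 lower, and 1 was separated upward. Epithelial summed levels were 59 to 126 in wild type and 104 to 251 in the mutants. Within Polr_2048 there was no overlap: the mesenchymal sum was 2608 and 3062 in wild type and 3896 and 4893 in null, the epithelial sum 59 to 70 against 116 to 126, and the endothelial sum 965 to 1004 against 1102 to 1263. The null hem and ventral differences thus came with higher levels of these markers. Within Polr_2138 the groups overlapped, with a mesenchymal sum of 2676 to 4393 in wild type and 3442 to 4873 in missense. Null 2 held the highest mesenchymal sum and missense 3 the highest epithelial one. Endothelial genes had a median of 0.13 over 35 genes (0.046 without null 2, 0.077 without wild type 1) and erythroid genes of 0.19 over 28. Leaving out wild type 2 took the erythroid median to 0.062, leaving out null 2 to 0.12 and leaving out wild type 4 to 0.32. None of the genes of these 4 lists was at the floor of the table in every sample, and the part of these cells in the hem, ventral and microglial differences was not tested. Without null 2 and missense 3, a choice made after the values were seen, the median was -0.27 for the ventral list, and its sign and those of the hem, microglial and p53 medians were unchanged.

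**Figure D5:**
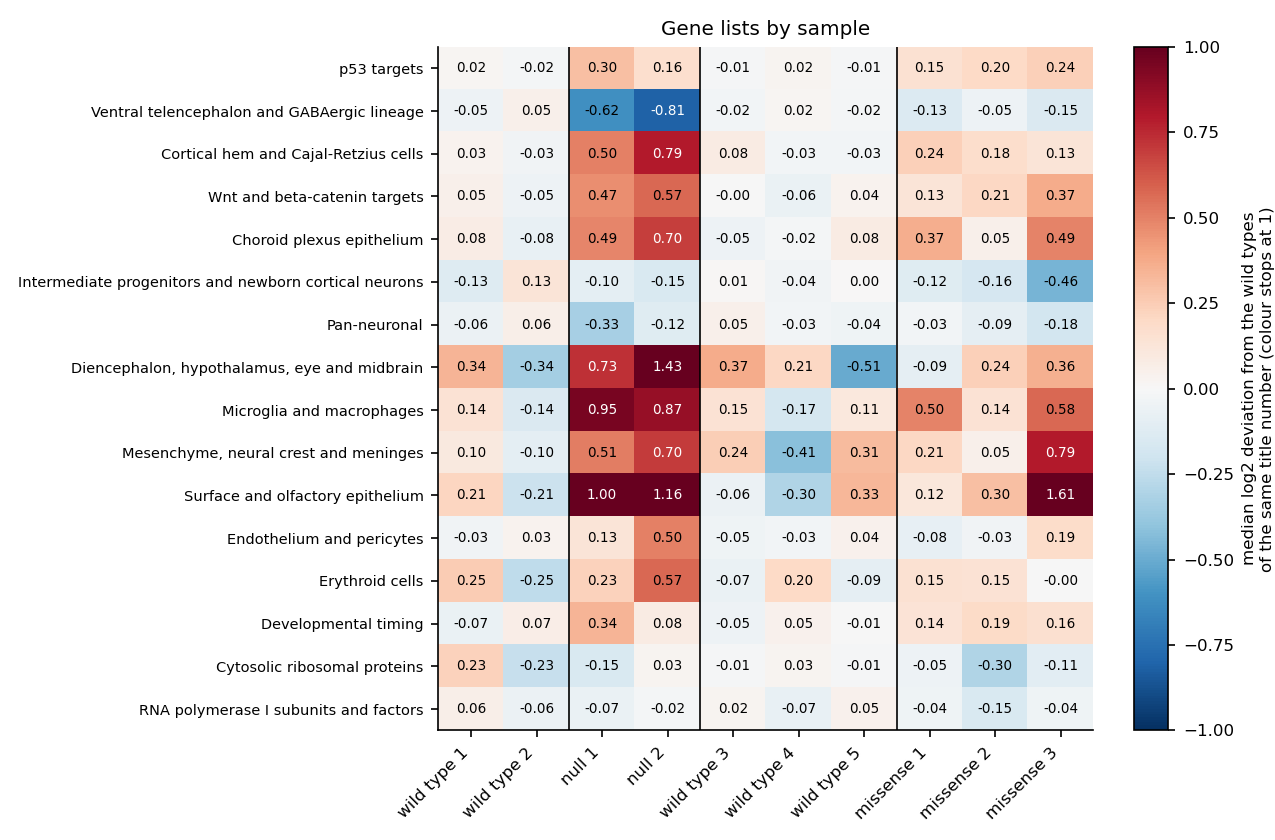
Median log2 deviation of each list (rows) in each sample (columns) from the mean of the wild types of the same title number. All 5 mutants are above 0 for p53 targets (0.15 to 0.30), hem, Wnt target, choroid plexus, microglial, mesenchymal, epithelial and developmental timing genes, and below 0 for ventral, newborn neuron, pan-neuronal and RNA polymerase I genes. The epithelial list reaches 1.61 in missense 3. Wild types reach into the mutant range of their own number for choroid plexus, microglial, mesenchymal, epithelial, newborn neuron, pan-neuronal and RNA polymerase I genes. Wild type 5 is at 0.31 for mesenchymal genes, against 0.05 in missense 2, and at 0.33 for epithelial genes, against 0.12 in missense 1.

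The samples differed in how far these groups went. For p53 targets the median deviation of a sample from its wild types was 0.30 and 0.16 in null 1 and 2, and 0.15, 0.20 and 0.24 in missense 1, 2 and 3, while the wild types lay between -0.02 and 0.02. The ventral median was -0.62 and -0.81 in null and -0.13, -0.05 and -0.15 in missense, and the hem median 0.50 and 0.79 in null and 0.24, 0.18 and 0.13 in missense. Thus null 2 had the larger hem and ventral deviations of the null pair and the smaller p53 deviation. Missense 3 had the largest p53 deviation of the missense samples and the smallest hem deviation.

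Genes that mark developmental time were slightly higher. Of 16 measured, 14 were above 0, with a median of 0.18, 0.20 in null and 0.15 in missense, and 5 higher and 0 lower members had an unadjusted p under 0.05. Lin28b, an RNA-binding protein of early progenitors, was at 4.79 and 4.93 in wild type and 5.28 and 5.30 in null, and at 4.42, 4.55 and 4.66 in wild type and 4.78, 4.79 and 4.71 in missense. Every mutant lay above the wild types of its own number (difference 0.30, SE 0.092, limma adjusted p = 0.290). Hmga2, a chromatin protein of young progenitors, differed by 0.27, and wild type 2 and null 2 both lay at 8.02. Dhx30, an RNA helicase of mitochondrial ribosome assembly, was among the 5 higher genes of smallest p at that level, with a difference of 2.20 (SE 0.37, limma adjusted p = 0.104). Its levels were 3.30 and 4.23 in wild type and 5.39 and 5.64 in null, and 1.33, 2.11 and 3.29 in wild type and 4.10, 4.66 and 5.46 in missense. They were higher in every mutant than in the wild types of its number, with missense 1 below wild type 2.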

How the data were processed

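The deposited table holds 1 log2 value per gene and sample for 14797 genes. The authors filtered and normalized the log2 values, per the name of the deposited table, and the unit was read from the values, which resemble log2 CPM with a floor of -3.16. GRCm39 is named in the submitters' processing notes. No source used here gives the aligner, counter or depth. The 1 gene without a name was left out.

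Values were fitted in limma 3.58.1 (R 4.3.3, variance trend on the level) with title number as a block and mutant against wild type, leaving 7 residual degrees of freedom, and p-values were adjusted over 14796 genes. A second fit with 4 groups gave each allele, their difference and their average. Tests were 2-sided. Alternatives changed the block, scaling, level filter, offset, variance model or covariate, took 1 title number alone or left out samples. Named genes are Polr1a, the called genes whose level reached the 25th percentile (up to 12 a direction, or the 5 of smallest p where fewer passed), 5 a direction for the difference and up to 3 a list. Nkx2-1, Dlx5, Rspo3, Bmp7, Wnt3a, Reln, Axin2, Ttr, Eomes, Pax6, Emx1, Sez6, C1qa, C1qc, Ctsd, Trim7 and those so described in the text were named after their values were seen. Values of some genes that the rule takes are left out of the text. The members and the 28 lists, of which 806 of 833 genes were measured, were chosen with earlier results of these data known. Promoters come from RefSeq tables of GRCm38.p6, and figures from Python 3.11.15, pandas 2.3.3 and matplotlib 3.10.9.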

Additional observations from a re-analysis of the deposited data

Results flagged for a closer look

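Among the 5 wild types, 4 of 125 named genes had 1 sample far from the other 4, where chance gives about 1 in 20. Ccng1 was 5.79 in wild type 4 against 5.36 to 5.46 in the others, and all mutants lay above it. Nkd1 was 5.81 in wild type 1 against 5.57 to 5.63. Herpud1 was 4.0 in wild type 4 against 4.37 to 4.52, and Nr4a1 was -0.66 in wild type 2 against 0.80 to 1.28. The alleles differed in a direct test for Dlx1, with a null effect minus missense effect of -1.06, and for Rpl34, with 3.29.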

How the results depend on the processing

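Leaving out each sample in turn gave 2 to 4 called genes, with Ccng1 and Eda2r called in 10 of 10 fits and Wnt8b in 3. Neither Ccng1 nor Eda2r was called in Polr_2048 alone (limma adjusted p = 0.438 for each) or in Polr_2138 alone (0.0920 for each). The pooled count of 3 was 40 (12 higher, 28 lower) with the unweighted mean of the alleles, 0 without a variance trend (0 higher, with adjusted p of 0.0695 for Ccng1 and Eda2r), 0 in title number Polr_2048 alone and 1 without null 2 and missense 3 together. Lower calls, 0 in the block fit, were 1 with quantile normalization (Rlbp1, adjusted p = 0.0406), 2 in number Polr_2138 alone and 0 to 1 with 1 sample left out. In number Polr_2138 alone 836 genes had an unadjusted p under 0.05. Genes differing between alleles numbered 1 after median centring, 0 without the trend, 4 with the Y-linked covariate and 1 to 10 with 1 sample left out. Separated genes numbered 770 to 1070 with 1 sample left out and 1378 without null 2 and missense 3, where fewer samples have to be separated. The correlation of the alleles was 0.315 above the 25th percentile and 0.188 with 1 added before log2, and genes of the same sign made up 56.7% to 59.3% with 1 sample left out.

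In Polr_2048 and Polr_2138 alone, list medians were -0.75 and -0.13 (ventral), 0.63 and 0.20 (hem), 0.59 and 0.20 (choroid plexus) and 0.47 and 0.16 (Wnt targets). In Polr_2048 alone they were 1.02 (diencephalon), 0.95 (microglia), 0.28 (endothelium) and 0.40 (erythroid), and for immediate early genes -0.053 in Polr_2138 alone and -0.062 above the 25th percentile. With 1 sample left out, medians ran from -0.46 to -0.29 (ventral), 0.15 to 0.23 (p53), 0.28 to 0.56 (choroid plexus) and 0.0084 to 0.064 (apoptosis, -0.0090 after median centring). Without null 2 and missense 3 they were -0.27 (ventral), 0.029 (dorsal progenitors) and 0.016 (hypoxia).

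Signs turned in title number Polr_2048 alone for Tbc1d17 (0.40) and Trp53 (-0.045), and in Polr_2138 alone for Rpl15 (-0.12), Stard8 (-0.24), Nr6a1 (-0.018), Kif11 (0.0037) and Mdm2 (0.060). Trp53 was -0.0079 after median centring and -0.017 to 0.076 with 1 sample left out. Mdm2 was 0.0034 with the Y-linked covariate, 0.037 without null 2 and missense 3 and -0.051 to 0.048 with 1 sample left out. Except where a sentence names the construction, the cause was not tested. The depth is unknown, so the precision of low genes such as Eda2r cannot be set. No paired analysis was possible because the labels give the groups no shared replicate numbers, and title number served as the block.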
